A study of Mus musculus with 12 samples.

Results

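Chaperones and chaperonins are the proteins that fold, refold and hold other proteins, and 82 genes for them were followed in RNA of cell clones from the mouse Fallopian tube. They were taken by name: protein-coding genes whose symbol begins with Hspa, Hspb, Hspd, Hspe, Hsph or Dnaja, Dnajb, Dnajc and a number, with Hsp90, or with Cct and a number from 2 to 8, together with Tcp1. These are 82 of the 35509 genes in the deposited table. Of them, 80 had at least 1 count, 40 had a count in every library, and 51 had enough counts to be tested. Hspb3, a small heat shock protein gene, and Dnajb8, a DNAJ gene, had 0 counts in all 12 libraries.

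The study asked how large clones differ from small clones. MADM (mosaic analysis with double markers) colours single dividing cells and their descendants, so that a clone can be seen in the tissue. Untreated mice of 4 weeks, with the MADM alleles RG and GR on a mixed background and otherwise wild-type, gave 12 libraries: 6 mice each gave 1 library of large clones and 1 of small clones. Each library holds 200 cells cut by laser from the distal part of the tube and pooled over clones of a size class within a mouse. All groups shared the alleles, the age and the absence of treatment. The size that separates large from small clones was not used here, and a library gives the mean of its pooled cells, not of any single clone. In such pooled samples, fewer cells of a type and less RNA per cell cannot be told apart.

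Chaperones of the HSP70 family bind short greasy stretches of unfolded proteins in a cycle driven by ATP. DNAJ proteins deliver the clients and trigger that cycle, and HSP110 proteins let the nucleotide go. HSP90 takes over clients such as kinases and steroid receptors at a late stage of folding, small heat shock proteins hold unfolded proteins without ATP, and chaperonins enclose a protein in a ring. Some members are made all the time, and others are induced by heat or other stress through the transcription factor HSF1, which binds inverted repeats of the letters GAA. The lining of the tube consists mainly of secretory and ciliated cells.

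The promoters of 5 members are printed because the results below turn on their genes. The inverted repeat GAANNTTC, which is its own reverse complement, was searched in RefSeq promoter windows of GRCm38.p6 that run from 250 bases before to 50 after a start site. Of the 82 members, 66 had such a window, with 85 windows in all. Hspa8, Hsp90aa1 and Hsp90ab1 were not matched. The repeat was present for 16 of these 66 members (24.2%) and for 9.04% of all 27025 genes with a window. A longer form, in which NNGAA follows the short form, was searched on both strands and was present for 4 members (6.06%) and for 0.662% of all genes. Among members known to be induced by HSF1, 5 of 7 had the short form: Hspa1a, Hspa1b, Hsph1, Hspb1 and Dnaja1. Among constitutive cytosolic members it was 1 of 5, Dnajb6, among members of the endoplasmic reticulum it was 0 of 6, and among mitochondrial members it was 2 of 6, Hspd1 and Hspe1, whose windows overlap on opposite strands. The long form was present for 1 of the 7 stress-induced, 1 of the 5 constitutive and 2 of the 6 mitochondrial members. The matches of Hspd1 and Hspe1 lie in the shared part of their windows. The same stretch is therefore counted for both genes, also in the shares of all members above. A match is a description of letters, and its absence says only that these letters are not in this window.

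The capitals mark matches to the short or the long form, and each window is written 5′ to 3′ on its gene's strand. Hspa1a encodes the stress-induced HSP70 and its window is chr17:34972107-34972406 on the minus strand. Hsph1, an HSP110, is at chr5:149636266-149636565 on the minus strand, and Hspb1, the small heat shock protein HSP25, is at chr5:135887669-135887968 on the plus strand. Hspd1, the mitochondrial HSP60, is at chr1:55087883-55088182 on the minus strand. Hspa5, the HSP70 of the endoplasmic reticulum, is at chr2:34771840-34772139 on the plus strand and is shown as a window without a match.
Hspa1a: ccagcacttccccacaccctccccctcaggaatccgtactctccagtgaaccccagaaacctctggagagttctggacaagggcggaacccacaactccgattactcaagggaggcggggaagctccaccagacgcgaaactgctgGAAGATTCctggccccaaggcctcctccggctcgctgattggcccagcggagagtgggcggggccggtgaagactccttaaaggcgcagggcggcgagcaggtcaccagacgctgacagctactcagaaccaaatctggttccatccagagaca
Hsph1: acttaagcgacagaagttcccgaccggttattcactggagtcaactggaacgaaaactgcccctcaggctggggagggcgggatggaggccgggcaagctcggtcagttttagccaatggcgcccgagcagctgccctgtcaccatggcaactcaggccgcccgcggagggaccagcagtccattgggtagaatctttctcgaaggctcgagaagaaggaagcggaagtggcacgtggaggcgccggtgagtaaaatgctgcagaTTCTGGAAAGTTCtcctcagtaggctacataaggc
Hspb1: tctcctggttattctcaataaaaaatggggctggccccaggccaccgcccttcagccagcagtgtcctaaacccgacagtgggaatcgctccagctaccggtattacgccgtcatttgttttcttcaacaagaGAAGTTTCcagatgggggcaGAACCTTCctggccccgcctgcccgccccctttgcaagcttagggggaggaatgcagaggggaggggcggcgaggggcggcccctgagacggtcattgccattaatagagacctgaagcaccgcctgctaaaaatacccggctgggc
Hspd1: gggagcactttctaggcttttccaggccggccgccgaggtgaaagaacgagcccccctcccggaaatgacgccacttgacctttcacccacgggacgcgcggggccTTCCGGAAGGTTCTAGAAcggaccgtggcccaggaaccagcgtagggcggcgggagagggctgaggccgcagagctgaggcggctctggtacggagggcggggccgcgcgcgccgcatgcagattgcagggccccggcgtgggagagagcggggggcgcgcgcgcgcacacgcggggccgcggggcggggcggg
Hspa5: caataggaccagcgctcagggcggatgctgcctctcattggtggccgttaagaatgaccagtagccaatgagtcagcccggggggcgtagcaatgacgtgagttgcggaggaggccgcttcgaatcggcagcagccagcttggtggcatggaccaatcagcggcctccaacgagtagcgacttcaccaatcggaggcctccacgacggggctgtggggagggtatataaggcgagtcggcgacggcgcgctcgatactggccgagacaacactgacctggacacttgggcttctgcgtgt
In the window of Hspa1a, the match lay at positions -104 to -97 from the start site. Hspb1 had matches at -117 to -110 and at -97 to -90, and Hspd1 had the long form on both strands within -144 to -127. In the window of Hsph1 the long form lay after the start site, at 16 to 28. The windows of Hspa1a and its neighbour Hspa1b differed at 4 of 300 positions. Of stretches of 75 bases taken at regular steps along the Hspa1a transcript, 52.5% also occurred in that of Hspa1b. Reads could therefore be shared between these genes, and they are given together below. Hspd1 lies head to head with Hspe1, which encodes its partner HSP10, and the window of Hspe1 at chr1:55087898-55088197 on the plus strand overlaps that of Hspd1.

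Each library held 3057979 to 4227129 expected counts, and a count of 0 allows up to 3 counts, or 0.569 to 1.296 CPM (counts after scaling libraries to a common size). Such limits reflect counting error alone, because reads copied by amplification do not stand for separate molecules. Krt18, an epithelial keratin, was present in every library and ran from 204 to 6708 CPM with library sizes scaled by the TMM method, and Ovgp1, the oviduct-specific glycoprotein of secretory cells, from 341 to 7611 CPM. The share of counts on chemoreceptor genes, which are the olfactory, vomeronasal, trace-amine and taste receptor genes, ran from 0.831% to 10.9% and fell into separate ranges. It was 7.75% to 10.9% in 5 libraries, which are the large clones of mice 1, 2 and 6 and the small clones of mice 3 and 6, and 0.831% to 4.10% in the 7 others. The epithelial markers Epcam, Krt8, Krt18, Cdh1 and Cldn3 summed to 248 to 1229 CPM in the 5 libraries and to 3728 to 8092 CPM in the 7. Values are therefore given over all libraries and for both ranges of this share.

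The 82 members together took 0.324% to 2.42% of a library's counts. In large clones this share was lowest at 0.324%, had a median of 1.15% and was highest at 2.20%, and in small clones the same values were 0.392%, 1.24% and 2.42%. The ranges of the clone sizes overlapped almost entirely. Between 53 and 69 members had a count in a library. The pair of cytosolic HSP90 genes made up 25.4% to 81.7% of the members' counts.

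**Figure D1:**
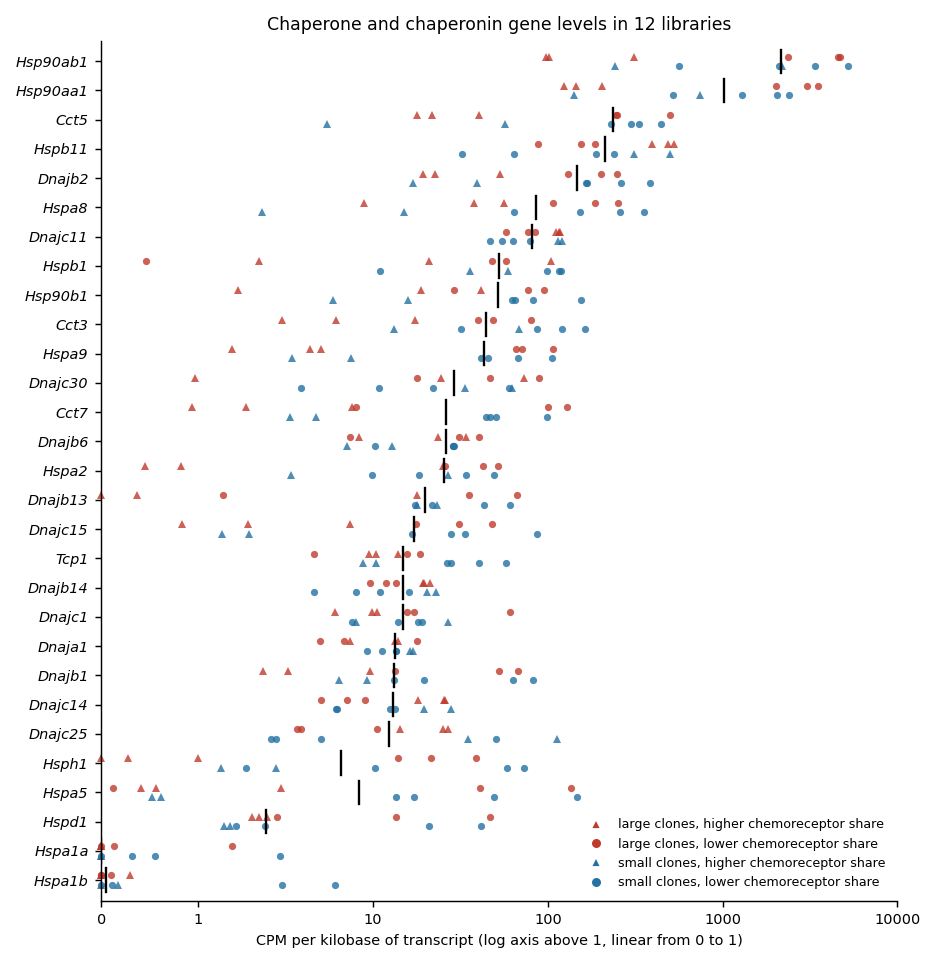
Level of 29 members in each of the 12 libraries, in CPM per kilobase of transcript on an axis that is logarithmic above 1. Red is large clones, blue is small clones, triangles are the 5 libraries with a chemoreceptor share of 7.75% or more, circles are the 7 others, and black bars are medians. Hsp90ab1 and Hsp90aa1 stand highest, and Hspa1a and Hspa1b stay below 10 in every library.

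To compare levels between genes, CPM was divided by the length of the longest protein-coding transcript. On this scale HSP90 genes were the most abundant. Hsp90ab1 (ENSMUSG00000023944, chromosome 17), the constitutive cytosolic HSP90, had a median of 2147 CPM per kilobase and ran from 97.98 to 5231. Hsp90aa1 (ENSMUSG00000021270, chromosome 12), its stress-induced partner, had a median of 1016 and ran from 123 to 3539. Cct5 followed with a median of 238, Hspb11 with 214 and Dnajb2 with 148 CPM per kilobase. The ranges of each of these neighbours in the order overlapped, so the order holds for medians and not for each library. These levels depend on the length used. With the median length of a gene's protein-coding transcripts the same 5 genes led, but Dnajb2 stood ahead of Hspb11, and the median was 8813 CPM per kilobase for Hsp90ab1, 4688 for Hsp90aa1, 82.4 against 13.4 for Dnaja1, 74.6 against 26.0 for Dnajb6, 17.9 against 5.97 for Dnajc7 and 12.8 against 2.26 for Dnajc18.

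In large clones, Hsp90ab1 was lowest at 247 CPM, had a median of 3393 and was highest at 11898. In small clones it was 609, 5411 and 13182 CPM. The large library was the lower of the pair in 5 of 6 mice, all but mouse 3, and the groups overlapped. Hsp90aa1 was 404, 3647 and 11611 CPM in large and 466, 3333 and 7875 CPM in small clones, with the large library lower in 4 of 6 mice. Hsp90b1, the HSP90 of the endoplasmic reticulum, had a far lower median of 51.7 CPM per kilobase. It was 4.74, 99.3 and 270 CPM in large and 16.6, 179 and 435 CPM in small clones. The log2 fold change of large against small clones was -0.17 (SE 0.99) for Hsp90ab1, 0.34 (SE 0.92) for Hsp90aa1 and -0.55 (SE 0.84) for Hsp90b1, each smaller than its error.

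Among HSP70 genes, Hspa8 (ENSMUSG00000015656, chromosome 9), the constitutive cytosolic HSC70, stood highest with a median of 85.8 CPM per kilobase. It was lowest at 21.3 CPM, had a median of 196 and was highest at 601 CPM in large clones, against 5.54, 261 and 847 CPM in small clones. Its lowest library was the small clones of mouse 3 and its highest the small clones of mouse 4. Hspa9, the mitochondrial HSP70, had a median of 43.3 CPM per kilobase and ran from 4.74 to 326 CPM. Hspa2, known for its role in the testis, had a median of 25.5 CPM per kilobase, with 1.14, 64.4 and 131 CPM in large and 8.59, 57.0 and 125 CPM in small clones. The log2 fold changes were -0.39 (SE 0.96) for Hspa8, -0.09 (SE 1.00) for Hspa9 and 0.05 (SE 0.96) for Hspa2, all smaller than their errors.

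The inducible HSP70 genes were near the limit of detection. Hspa1a (ENSMUSG00000091971, chromosome 17) and Hspa1b (ENSMUSG00000090877, chromosome 17) had 0 counts together in the large clones of mice 2, 4 and 6 and in the small clones of mice 2 and 6. Summed, they had 4, 0, 1, 0, 18 and 0 counts in the large clones of mice 1 to 6 and 4, 0, 2, 56, 61 and 0 counts in the small clones. Hspa8 in the same libraries had 441, 93, 1109, 597, 2199 and 708 counts in large and 497, 1083, 23, 2561, 2206 and 175 counts in small clones. The small clones of mice 4 and 5 therefore held most of the counts of the inducible pair, and they were also among the 3 libraries with the most Hspa8. Too few counts were present for either gene to be tested.

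Hsph1, an HSP110 that exchanges the nucleotide of HSP70 and is strongly heat-inducible, had 0, 28.1 and 147 CPM as lowest, median and highest value in large clones and 5.11, 24.8 and 276 CPM in small clones. Hspa4, a constitutive HSP110, had 2.52, 18.3 and 97.6 CPM in large and 11.995, 51.6 and 83.9 CPM in small clones. In both genes the large library was the lower in 5 of 6 mice, with log2 fold changes of -0.97 (SE 1.36) for Hsph1 and -0.72 (SE 0.86) for Hspa4. Of the 14 genes of the HSP70 and HSP110 families, 9 were tested, 7 lay below 0 and 2 above, with a median log2 fold change of -0.39.

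Of 8 genes named as small heat shock proteins, 3 were tested and the other 5 had at most 126 counts in all libraries together. Hspb1 (ENSMUSG00000004951, chromosome 5), which holds unfolded proteins and protects actin filaments, had 0.432, 32.0 and 97.6 CPM in large and 10.1, 73.3 and 111 CPM in small clones. It was lower in large clones in 6 of 6 mice, with differences from -0.05 in mouse 3 to -6.25 in mouse 4 on the log2(CPM + 1) scale, and the groups overlapped. The large library of mouse 4 held 1 count. The fitted log2 fold change was -0.91 (SE 0.96). Hspb8, which works with BAG3 in the removal of aggregates, ran from 0 to 89.8 CPM. Hspb11, named as a heat shock protein but also known as a part (IFT25) of the transport machinery of cilia, was 53.3, 177 and 322 CPM in large and 19.7, 130 and 303 CPM in small clones. The log2 fold change was -0.21 (SE 1.27) for Hspb8 and 0.47 (SE 0.67) for Hspb11.

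The mitochondrial chaperonin genes were low and uneven. Hspd1 ran from 3.37 to 113 CPM, and 3 libraries stood above 50 CPM: the large clones of mouse 4 at 113, the small clones of mouse 2 at 101 and the small clones of mouse 5 at 50.9. Hspe1, which shares its promoter region, was 6.91, 18.7 and 56.8 CPM in these same libraries and was highest in the large clones of mouse 5 at 85.8, where Hspd1 was 6.83 CPM. The partners thus did not peak in the same libraries. Their log2 fold changes were 0.00016 (SE 1.15) for Hspd1 and -0.41 (SE 1.43) for Hspe1.

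Of the DNAJ genes, 28 of 45 were tested. Per kilobase, Dnajb2, which carries clients to the proteasome, was the most abundant, with 58.9, 282 and 766 CPM in large and 51.6, 512 and 1179 CPM in small clones. Dnajb1, the heat-inducible partner of HSP70, was 7.02, 34.2 and 202 CPM in large and 19.0, 48.9 and 247 CPM in small clones. Dnaja1, another partner of HSP70, was more even: it had 28.1, 58.3 and 99.7 CPM in large and 52.1, 76.2 and 95.1 CPM in small clones. Dnajb6, which keeps proteins from aggregating, had 21.6, 79.4 and 118 CPM against 20.7, 60.4 and 85.3 CPM. Dnaja2, a constitutive partner of HSP70, had a count in 9 libraries and was at most 77.7 CPM. Dnajc7, which binds both HSP70 and HSP90, was 3.89, 13.0 and 18.8 CPM in large and 2.05, 16.9 and 56.4 CPM in small clones. The log2 fold changes were -0.61 (SE 0.79) for Dnajb2, -0.38 (SE 0.90) for Dnajb1, -0.33 (SE 0.49) for Dnaja1, 0.31 (SE 0.61) for Dnajb6, -0.43 (SE 1.56) for Dnaja2 and -0.94 (SE 0.77) for Dnajc7. Only that of Dnajc7 exceeded its error, and it did not pass the test.

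Dnajb13 is a part of the radial spokes of motile cilia, and was at 0, 24.9 and 172 CPM in large and at 45.2, 58.2 and 158 CPM in small clones. Its lowest small library lay above the large libraries of mice 1, 3 and 6, and its log2 fold change was -0.60 (SE 1.16). Dnajc5, the cysteine string protein of vesicles, was 815 CPM in the large clones of mouse 4 and at most 159 CPM in any other library. Dnajc19, a mitochondrial import protein, was 332 CPM in that same library and at most 60.1 CPM in any other. The fold changes of these genes therefore rest on this library: without mouse 4, that of Dnajc5 was -0.87 and that of Dnajc19 was -0.40, against 1.16 (SE 1.00) and 1.33 (SE 0.92) with it. By family, 1 of 4 DNAJA, 2 of 8 DNAJB and 9 of 16 DNAJC genes lay above 0, with median log2 fold changes of -0.38, -0.61 and 0.15.

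The cytosolic chaperonin, TRiC, is a stacked pair of rings of related subunits that folds actin and tubulin. The subunit genes among the members were measured at unequal levels. Cct5 had a median of 238 CPM per kilobase, Cct3 of 44.3, Cct7 of 26.2, Tcp1 of 14.8, Cct4 of 10.9, Cct8 of 2.08 and Cct2 of 0.338 CPM per kilobase. Cct2 had a count in 9 libraries and 225 counts in all, and was not tested. Cct6b and Cct8l1 had 3 and 26 counts in all libraries. Cct6a, a further subunit gene, was not among the members, so the subunits followed here are not a complete set. TRiC holds its subunit proteins in equal number, while the RNA medians listed from Cct5 to Cct2 ran from 238 to 0.338 CPM per kilobase. These are unlike measures, since protein was not measured. The RNA span also depends on the length used. With the median transcript length the medians were 326 for Cct5 and 1.02 for Cct2.

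Cct5 was 33.0, 265 and 924 CPM in large and 10.1, 491 and 823 CPM in small clones, with a log2 fold change of -0.35 (SE 0.94). Cct7 was 2.28, 19.0 and 316 CPM in large and 8.18, 111 and 240 CPM in small clones, with a log2 fold change of -0.0015 (SE 1.11). Cct3 was 5.98, 56.6 and 159 CPM in large and 26.0, 153 and 322 CPM in small clones, lower in large clones in 5 of 6 mice, with a log2 fold change of -1.31 (SE 0.79). Cct4 was 1.37, 27.1 and 300 CPM in large and 0.614, 29.3 and 128 CPM in small clones, with a log2 fold change of 0.51 (SE 1.22). Cct8 was 153 CPM in the large clones of mouse 3 and at most 21.8 CPM elsewhere. Its log2 fold change of 1.44 (SE 1.56) became -2.36 without mouse 3. Of the 6 tested genes 2 lay above and 4 below 0, with a median of -0.18.

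Constitutive and stress-induced members were compared as fixed lists of cytosolic genes. The stress-induced list holds Hspa1a, Hspa1b, Hsph1, Hsp90aa1, Dnajb1, Dnaja1, Dnajb4 and Hspb1, and the constitutive list holds Hspa8, Hsp90ab1, Dnaja2, Hspa4, Dnajc7, Dnajb6, Hspa14 and Dnajc2. Summed per kilobase, the stress-induced list was 156 to 3673 and the constitutive list 139 to 5627 CPM per kilobase. The ratio of the sums was below 1 in 11 libraries, from 0.374 to 0.874, and was 2.40 in the large clones of mouse 2. Most of each sum was HSP90. The ratio of Hsp90aa1 to Hsp90ab1 per kilobase ran from 0.339 to 2.08 and was above 1 in the large clones of mice 2 and 6 only. With the median transcript length, the ratio of the sums was also above 1 in the large clones of mouse 6, at 1.20, and that of the HSP90 pair also in the small clones of mouse 2, at 1.03.

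Without the HSP90 pair, the ratio of stress-induced to constitutive sums was 0.235 to 0.736 in 9 libraries. It was 3.15 in the large clones of mouse 2, 2.62 in the small clones of mouse 3 and 2.07 in the small clones of mouse 6. These 3 are among the 5 libraries with the higher chemoreceptor share, and Hspa8 was lowest in them, at 21.3, 5.54 and 35.8 CPM. In these 3 libraries Hspb1 alone made up 80.9%, 67.3% and 41.0% of the stress-induced sum without HSP90. Without Hspb1 as well, an alternative added after seeing the data, the ratios were 0.603, 0.858 and 1.22. In the 9 others this ratio ran from 0.143 to 0.446, so these 3 libraries still stood highest. They were also the 3 libraries with the most counts on the pseudogene Hsp25-ps1, with 171, 88 and 67. The part of the chemoreceptor share and of the pseudogene in this ratio was not tested. For large clones the ratio without HSP90 was 0.235, 0.476 and 3.15 as lowest, median and highest value. For small clones it was 0.518, 0.718 and 2.62. With HSP90 included the medians stood in the opposite order. That ratio was 0.408, 0.790 and 2.40 in large and 0.374, 0.616 and 0.846 in small clones. The clone sizes overlapped.

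**Figure D2:**
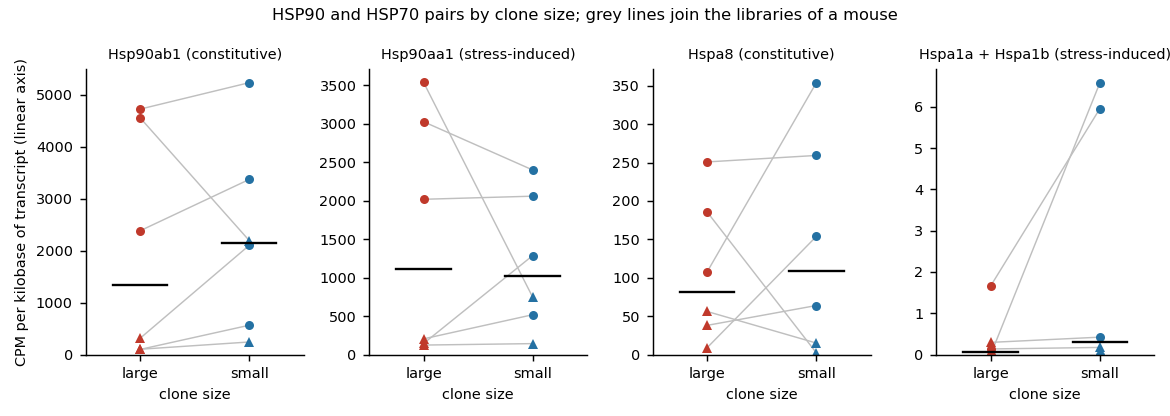
Levels of the constitutive and stress-induced cytosolic HSP90 and HSP70 genes in large and small clones, in CPM per kilobase on linear axes from 0. Each point is a library (triangles: the 5 with the higher chemoreceptor share), grey lines join the libraries of a mouse and black bars are medians. The inducible HSP70 pair reaches 6.58 CPM per kilobase, and Hspa8 reaches 354.

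Between clone sizes both lists lay below 0. Of the 6 tested stress-induced members 5 had a log2 fold change below 0, with a median of -0.65, and of the 6 tested constitutive members also 5, with a median of -0.41. Over all genes tested the median was 0.06. None of the 12 passed the test, and whether the lists differ from each other was not tested. When only the 7 libraries with the lower chemoreceptor share were fitted, the medians were -0.14 and -0.20, and with only the 5 others they were -1.16 and 0.82.

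Members of the endoplasmic reticulum, which fold secreted and membrane proteins and are induced by the unfolded protein response, included 2 of the 4 most variable members. Hspa5 had a coefficient of variation of 155% over the 12 libraries and Dnajb11 one of 149%, among the 40 members with a count in every library. Hspa5 (ENSMUSG00000026864, chromosome 2), known as BiP, was 0.432, 6.497 and 495 CPM in large and 1.93, 56.2 and 541 CPM in small clones. It was lower in large clones in 5 of 6 mice, with differences from -0.37 in mouse 6 to -6.98 in mouse 4 on the log2(CPM + 1) scale, and higher in mouse 3. Both ends of this range rest on few counts. The large library of mouse 4 held 1 count, and mouse 6 had 8 counts in large and 11 in small clones. The fitted log2 fold change was -0.34 (SE 1.503), and without mouse 3 it was -2.34. Dnajb11, a cofactor of BiP, ran from 0.241 to 92.6 CPM and had a log2 fold change of -1.28 (SE 1.19). Dnajc3, which restrains the kinase PERK and also assists BiP, ran from 0 to 167 CPM with -1.60 (SE 1.32). Dnajb9, another cofactor, had a count in 8 libraries and at most 32.1 CPM, and was not tested.

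All 5 tested members of this list of 7 lay below 0 in large clones, with a median log2 fold change of -0.74, and 0 passed the test. This direction was not kept in every fit. With the chemoreceptor share as a covariate the median was 0.030. Within the 7 libraries of lower share it was -0.94 and within the 5 others 0.88. The mitochondrial list of 9 had 8 tested members, of which 5 lay above and 3 below 0, with a median of 0.12. Among them Dnajc11, which belongs to the contact site of the mitochondrial membranes, was the steadiest member with a count in every library: its highest library was 2.59 times its lowest, with a coefficient of variation of 32.0% over 12 libraries, against a median of 87.3% for 40 members and 84.0% for 7516 tested genes with a count in every library.

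Some members separated the libraries by their chemoreceptor share. In 5 tested members, all 5 libraries of the higher share lay above all 7 others: Hspb11, Dnajc11, Dnajb14, Dnajc14 and Dnajc12. These are 9.80% of the 51 tested members, against 8.64% of all 10848 genes tested. In 9 tested members all 5 lay below the 7 others: Hspa8, Hspa9, Cct5, Cct7, Dnajb1, Dnajb2, Dnajc5, Dnajc15 and Hspb8. These are 17.6% of tested members, against 9.97% of all genes tested. The share of higher-lying members was near the background, and the share of lower-lying members was above it. No test was made, since these ranges were read from the libraries.

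Hspa8 was 5.54 to 134 CPM in the 5 libraries and 153 to 847 CPM in the 7. Cct5 was 10.1 to 105 CPM against 424 to 924 CPM, Hspa9 4.74 to 22.7 CPM against 126 to 326 CPM, and Dnajb2 51.6 to 164 CPM against 399 to 1179 CPM. In the opposite direction, Hspb11 was 189 to 322 CPM in the 5 libraries and 19.7 to 145 CPM in the 7. Dnajc11 was 350 to 382 CPM against 147 to 265 CPM, and Dnajb14, a DNAJ protein of the endoplasmic reticulum membrane, was 183 to 216 CPM against 43.6 to 153 CPM. Hspa1a and Hspa1b together had 0 to 4 counts in the 5 libraries and 0 to 61 counts in the 7, which overlap. Counts on processed pseudogenes were 10.7% to 15.5% of all counts in the 5 libraries and 2.97% to 7.22% in the 7. The secretory markers summed to 455 to 1108 CPM in the 5 libraries and to 1288 to 8557 CPM in the 7, and the ciliated markers to 47.6 to 185 CPM and to 398 to 2323 CPM. The immune markers Ptprc, Cd3e, Cd68, Lyz2 and Cd79a summed to 14.9 to 243 CPM in the 5 libraries and to 0.432 to 55.1 CPM in the 7. They did not all go this way. Ptprc reached 55.5 CPM in the 5 libraries against 4.10 in the 7, Cd3e 172 against 17.5 and Cd79a 11.2 against 8.60. Cd68 reached 0.759 CPM in the 5 against 35.7 in the 7, and Lyz2 4.13 against 22.0. The part of these values in the levels of the members was not tested.

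**Figure D3:**
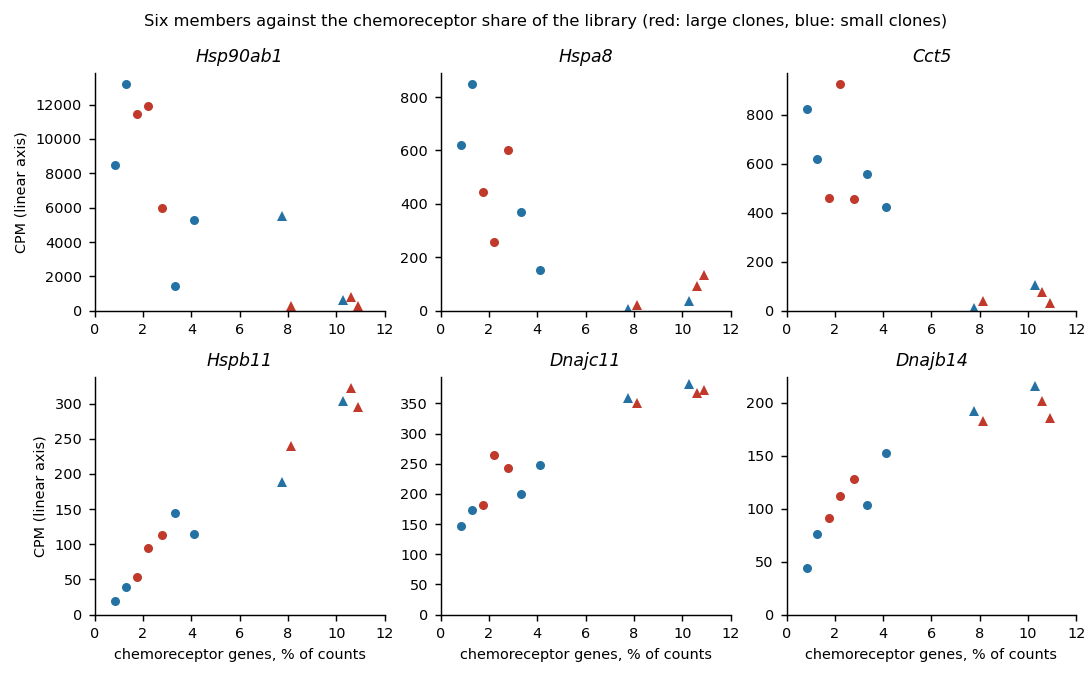
CPM of 6 members (linear axes from 0) against the percentage of a library's counts on chemoreceptor genes. Each point is a library, red for large and blue for small clones. The 5 libraries at 7.75% or more (triangles) lie below the 7 others (circles) for Hspa8 and Cct5, overlap with them for Hsp90ab1, and lie above them for Hspb11, Dnajc11 and Dnajb14.

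No member passed the test between large and small clones. In edgeR's quasi-likelihood test 0 of 51 members had an adjusted p under 0.05, and 0 of all 10848 genes did (0%). The lowest adjusted p of a member was 0.9996. DESeq2 also called 0 members, with 5 genes called over the table (0.0474%), and with mouse as a block it called 0 members and 44 genes (0.431%). At an unadjusted p under 0.05 there were 2 of 51 members and 275 genes (2.54%), so the members' share was close to that of all genes. Their log2 fold changes ran from -2.56 to 1.44. The spread between libraries of a clone size was wide, with a biological coefficient of variation of 115% over all genes.

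Dnajc18 (ENSMUSG00000024350, chromosome 18), a DNAJ protein of the endoplasmic reticulum membrane, had the lowest p. It was 0.401, 3.08 and 12.3 CPM in large and 0.241, 18.2 and 92.1 CPM in small clones, and the large library was the lower in 5 of 6 mice. In mouse 3, the exception, each library held 1 count, which is within the limit of 3 counts. Its log2 fold change was -2.56 (SE 1.12), with an edgeR p of 0.0377 and an adjusted p of 0.9996. Dnajb12 (ENSMUSG00000020109, chromosome 10), a related protein of the same membrane, was 0, 5.26 and 9.29 CPM in large and 3.64, 14.9 and 95.7 CPM in small clones. It was lower in 6 of 6 mice, with a log2 fold change of -2.39 (SE 1.07) and an edgeR p of 0.0408. The third lowest was Tcp1 (ENSMUSG00000068039, chromosome 17), a subunit of TRiC, with 11.2, 29.7 and 45.3 CPM in large and 21.3, 66.8 and 140 CPM in small clones. It was lower in 5 of 6 mice with a log2 fold change of -1.24 (SE 0.62). In all 3 the groups overlapped.

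In the opposite direction the lowest p values belonged to Dnajc19 and Dnajc5, described above, and to Dnajc12, which supports the folding of aromatic amino acid hydroxylases. Dnajc12 was 1.64, 4.52 and 47.9 CPM in large and 0.992, 5.66 and 14.3 CPM in small clones, with a log2 fold change of 1.13 (SE 0.96). Its large-clone median was below that of small clones, and without mouse 2 the log2 fold change was -0.079.

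**Figure D4:**
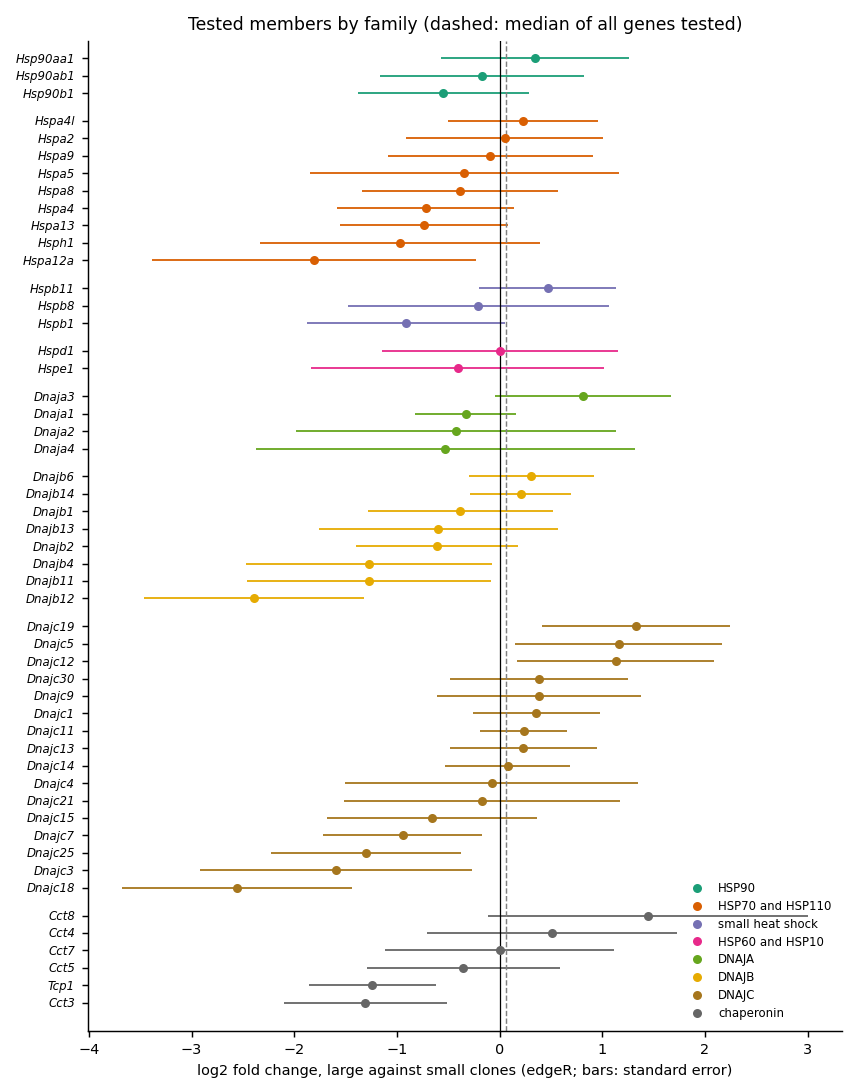
Log2 fold change of large against small clones for the 51 tested members, by family, with standard errors as bars. The solid line is 0 and the dashed line is the median of all genes tested, 0.06. Of the members, 32 lie below 0 and 19 above, and most error bars reach across 0.

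More members lay below 0 than above. Of 51 tested members 32 (62.7%) had a log2 fold change below 0, against 46.8% of all genes tested, and the median was -0.33 against 0.06. In 13 members (25.5%) the large library was the lower in at least 5 of 6 mice, which held for 13.5% of all genes. They were Hsp90ab1, Hsp90b1, Hspa4, Hspa5, Hsph1, Hspb1, Dnajb12, Dnajb13, Dnajc3, Dnajc4, Dnajc18, Cct3 and Tcp1. It was the higher in at least 5 mice in 2 members (3.92%), Dnaja3 and Dnajc30, both mitochondrial DNAJ genes, against 12.2% of all genes. In no member were large and small clones without overlap, against 0.0645% of all genes.

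Markers of cell types also had median log2 fold changes away from 0, though 0 of them passed the test. Epithelial markers had a median log2 fold change of -0.92, with 3 of 4 tested below 0, ciliated markers one of -0.88, with 5 of 6 below 0, and secretory markers one of -0.52, with 3 of 5 below 0. Immune markers had a median of 1.67, endothelial markers of 0.68 and red blood cell markers of 0.84, each with 3 of 3 tested above 0. These lists hold 5, 4 and 5 markers, so part of each was not tested. Of 5 smooth muscle markers 1 was tested, at -0.83. Fibroblast markers had a median of -0.81, with 2 of 3 tested below 0. The epithelial markers summed to 248 to 8092 CPM in large and 709 to 7918 CPM in small clones, and the immune markers to 0.432 to 243 CPM and 2.38 to 81.8 CPM. In both lists the clone sizes overlapped. The part of cell makeup in the lean of the members was not tested.

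The lean was not shared by all mice. On the log2(CPM + 1) scale, the median difference over the 51 members was -0.61 in mouse 1, -2.05 in mouse 2, 1.51 in mouse 3, -0.93 in mouse 4, -0.50 in mouse 5 and -0.35 in mouse 6. Over all genes it was 0.066, 0.023, 0.047, -0.27, 0.080 and -0.071. The median member was thus lower in large clones in 5 mice and higher in mouse 3, with an SD over mice of 1.15. The chemoreceptor share moved with it: it was higher in the large library in the same 5 mice and lower in mouse 3, where it was 1.74% in large and 7.75% in small clones. The share differed less between the libraries of mice 4, 5 and 6, at 2.22% in large against 1.28% in small clones, 2.80% against 0.831% and 10.9% against 10.3%, than between those of mice 1, 2 and 3. The part of the share in the lean was not tested. Of the 11 members lower in exactly 5 mice, mouse 3 was the exception in 7, and over all genes lower in 5 mice it was the exception in 65.3%. For Dnajc18, among these 7, both libraries of mouse 3 held 1 count.

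The median over members changed sign with the share as a covariate, and stayed below 0 within each range of the share. With the chemoreceptor share as a covariate the median over members was 0.12 and 21 of 51 lay below 0. With the covariate and mouse as a block it was 0.036. Within the 7 libraries of lower share it was -0.025 against -0.097 for all genes, and within the 5 others -0.26 against 0.035. With mouse as a block and no covariate it was -0.63, and 36 of 51 members lay below 0.

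**Figure D5:**
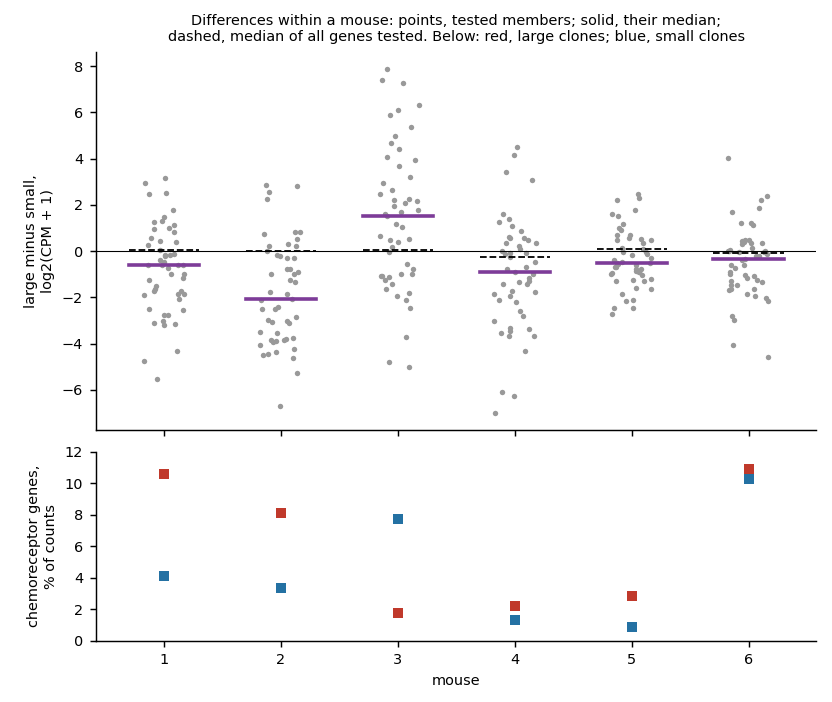
Upper panel: difference between large and small clones on the log2(CPM + 1) scale within each mouse, with a point for each of the 51 tested members, a solid line for their median and a dashed line for the median of all genes tested. Lower panel: the percentage of counts on chemoreceptor genes in the same libraries. The members' median is below 0 in 5 mice and 1.51 in mouse 3, the mouse in which small clones had the higher chemoreceptor share.

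Genes that work with chaperones but are not named as such were followed in fixed lists, and 0 of them passed the test. Of 25 heat shock factors and co-chaperones 22 were tested, with 11 above and 11 below 0 and a median log2 fold change of -0.04. Bag1, a nucleotide exchange factor of HSP70, had a median of 2073 CPM, and Hsf1 one of 3.30 CPM. Bag6, which guards membrane proteins before insertion, had a log2 fold change of -2.40 (SE 1.62). Prefoldin, which hands actin and tubulin to TRiC, and the genes listed with it had 4 of 6 tested above 0 and a median of 0.21. Of them Txndc9 had 0.71 (SE 0.58) and Pfdn2 had 1.22 (SE 1.05).

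Genes of the unfolded protein response leaned the same way as the members of the endoplasmic reticulum. Of 20 genes 17 were tested, 14 lay below 0 and 3 above, with a median log2 fold change of -0.66, against 46.8% below 0 and a median of 0.06 over all genes. Pdia4, a disulfide isomerase of the endoplasmic reticulum, was 3.54 ± 3.34 CPM in large against 24.5 ± 18.5 CPM in small clones (mean ± SD of 6 mice each). It was lower in 5 of 6 mice, with a log2 fold change of -2.78 (SE 0.89). Its edgeR adjusted p was 0.9996, and it passed the test in DESeq2 with mouse as a block, with an adjusted p of 0.0390. The related Pdia6 had -1.78 (SE 1.10), and it turned to 0.41 with the chemoreceptor share and mouse in the fit. With the share as a covariate the median of the list was -0.41, with the share and mouse as a block it was -0.18, and within the 7 libraries of lower share it was -0.90. Of 12 early stress response genes, which are quickly induced by many signals, 4 were tested and 3 of these lay below 0. Of them Ier3 had -2.23 (SE 1.26) and Zfp36 had 1.05 (SE 0.65). The summed level of the list was 61.4 to 265 CPM in large and 68.6 to 232 CPM in small clones.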

How the data were processed

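RNA of 6 libraries of large and 6 of small clones was measured. The authors deposited a table of expected counts per gene. Per the submitters' processing notes, RSEM, Bowtie2 and GRCm38 were used, with no versions given. RSEM shares reads that fit several transcripts, so 22.7% of entries were not whole, which leaves near-identical genes uncertain. Of 35491 genes also found in GENCODE M21 of GRCm38, 2.96% began at the same chromosome position, so genes are placed here by chromosome only. Rows without a symbol together held 0.133% of counts.

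Expected counts were rounded and tested on the whole table with edgeR 4.0.16 (quasi-likelihood test, TMM, filterByExpr, Benjamini-Hochberg adjustment, threshold 0.05, no covariate) in R 4.3.3. The filter kept 10848 genes. CPM used TMM-scaled library sizes and, per kilobase, the longest protein-coding GENCODE M21 transcript, matched by gene identifier for 82 members. Differences within a mouse were taken as log2(CPM + 1). SE is the fold change divided by the square root of the F statistic. Totals of 3057979 to 4227129 counts and 6 mice per group limit the precision.

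The labels give each mouse a number that its large and small libraries share, so a fit with mouse as a replicate block was the paired alternative. Deviations from the group means correlated at -0.019, -0.0069, -0.38, 0.28, 0.52 and 0.64 for mice 1 to 6. The members and lists were chosen with earlier results of these data known, so no test over a list was made. Named were the main members of each family, all Cct genes, the 3 lowest p in each direction, the 5 highest levels, and the 2 lowest p of each pathway list. A pathway gene that this rule names is not reported here. Other members were named after their values were seen.

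Alternatives were other size factors, filters, protein-coding genes alone, DESeq2 1.42.0, the mouse block, the chemoreceptor share as a covariate, libraries of lower or higher share alone (split at the largest gap) and leaving out each mouse. The median transcript length and the list sums without Hspb1 were added after seeing the data. The edgeR script was tested on simulated data. Promoters are from RefSeq. Figures were drawn with matplotlib 3.10.9.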

Additional observations from a re-analysis of the deposited data

Results flagged for a closer look

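Processed pseudogenes with chaperone names are not protein-coding, were outside the comparisons, and in part held counts above the limit of 3 counts that a count of 0 allows. Of 16 that the naming rule would otherwise take, 6 reached more than 3 counts in a library and 7 had 0 counts everywhere. Hsp25-ps1, which the rule does not match and which was found by its description as a heat shock pseudogene, reached 171 counts in the large clones of mouse 2 and had 88 and 67 counts in the small clones of mice 3 and 6. Cct3-ps1 had 42 counts, all in the small clones of mouse 3. Hspe1-ps1 reached 15 counts in the small clones of mouse 1, and Hspe1-ps5 reached 14 in the large clones of mouse 2. Dnajc19-ps reached 12 counts in the large clones of mouse 2, Hspa9-ps1 reached 6 in the small clones of mouse 2 and Dnaja1-ps had 6, all in the large clones of mouse 1. Reads of a gene and of its near-identical copy can be shared by the counting, so counts of the parent genes carry this uncertainty. Hspb1 itself was at 97.6 CPM in the large clones of mouse 2, 55.2 in the small clones of mouse 3 and 33.6 in the small clones of mouse 6. Whether pseudogene reads bear on its level there was not tested.

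Outlying libraries were also searched, on the log2(CPM + 1) scale. In 76 groups of 6 libraries, 0 had a library whose gap to the nearest other exceeded Dixon's limit for 6 values, where chance alone would give about 3.8. These groups did not take in every member in both clone sizes, so members outside them can hold an outlying library. Cct8l1, for example, had 26 counts in the small clones of mouse 6 and 0 in every other library. Hspa1a had 17 counts in the large clones of mouse 5 and at most 1 in any other large library.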

How the results depend on the processing

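No member passed in any of the 18 other fits, in edgeR or DESeq2. Over all genes, 5 passed in DESeq2 and 44 in DESeq2 with mouse as a replicate block, against 0 in edgeR without and with the block. The lowest adjusted p of a member was 0.0927, for Dnajc18 in DESeq2 with the block. In that fit 9 members (17.6%) and 1135 genes (10.5%) had an unadjusted p under 0.05, and all 9 were lower in large clones. How many of the 1135 genes were lower was not counted, so this direction has no background beside it. The median log2 fold change over all genes in that fit was -0.063.

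Elsewhere, the count of genes at an unadjusted p under 0.05, 275 in the edgeR fit reported, was 537 in DESeq2, 530 with a covariate for the chemoreceptor share, 487 with that covariate and the block, 684 within the higher share only, 560 within the lower share only, 122 with at least 10 counts in every library and 2880 with no filter. Leaving out a mouse gave 185 (mouse 4) to 491 (mouse 3). The count of members, 2, was 1 with the block, 1 with the share and the block, 6 within the higher share, 0 within the lower share, 0 with library totals only, 1 with at least 10 counts in every library, 9 with no filter, and 0 (mice 1 and 6 left out in turn) to 3 (mouse 3) without a mouse.

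Of 42 genes chosen by the naming rule and tested, 17 kept their sign in every fit that tested them, among them Dnajc18, Dnajb12, Dnajb13, Cct3, Hspb1, Hspb11, Hsph1, Hspa4, Dnaja1, Dnajb6 and Pdia4, and 25 changed it. The cause was not tested. With mouse as a replicate block the changed log2 fold changes were Dnajc5 -0.16, Cct4 -0.18, Hsp90aa1 -0.33, Cct8 -0.98, Dnajc19 -0.090, Hspb8 0.54 and Hspa2 -0.73, and in DESeq2 with the block Dnajc5 -0.18, Cct4 -0.20, Hsp90aa1 -0.34, Cct8 -0.89, Dnajc19 -0.11, Hspb8 0.63 and Hspa2 -0.72. With the share as a covariate they were Dnajb11 0.19, Hspa8 0.68, Hsp90b1 0.030, Hspa9 0.10, Dnajb2 0.066, Hspa5 0.87, Cct7 0.28, Dnaja2 1.13, Hspb8 1.304 and Hspe1 1.35. With the share and the block they were Dnajb11 0.24, Hspa8 1.33, Hsp90b1 0.036, Cct5 0.60, Hspa9 0.11, Dnajb2 0.013, Hspa5 0.34, Dnaja2 1.19, Hspb8 1.33, Hspa2 -0.64, Hspe1 0.29 and Pdia6 0.41. Within the higher share they were Dnajc5 -0.26, Dnajc7 0.57, Hspa8 1.99, Hsp90b1 0.88, Hsp90aa1 -1.62, Dnajc3 1.04, Cct8 -1.37, Dnajb2 0.058, Hspa5 1.10, Dnaja2 6.31, Hspa2 -0.96, Tcp1 0.16 and Pdia6 0.18, and within the lower share Dnajb1 0.020, Hsp90ab1 0.44, Hspa9 0.25, Cct7 0.36 and Hspb8 0.056. They were Hspd1 -0.27 and Hspa2 -0.051 with library totals only, Hspd1 -0.22 with at least 10 counts and Hspd1 -0.015 with no filter. Leaving out a mouse gave ranges of Dnajc5 -0.87 (mouse 4) to 1.63 (mouse 5), Dnajb1 -0.95 (mouse 3) to 0.27 (mouse 4), Cct4 -1.09 (mouse 3) to 1.15 (mouse 4), Hspa8 -0.87 (mouse 3) to 0.11 (mouse 4), Hsp90aa1 -0.22 (mouse 3) to 0.56 (mouse 1), Hspa9 -0.65 (mouse 4) to 0.19 (mouse 2), Cct8 -2.36 (mouse 3) to 1.99 (mouse 2), Hspd1 -1.57 (mouse 4) to 1.12 (mouse 2), Hspa5 -2.34 (mouse 3) to 0.71 (mouse 5), Dnajc19 -0.40 (mouse 4) to 1.69 (mouse 1), Cct7 -1.04 (mouse 3) to 0.68 (mouse 4), Dnaja2 -2.81 (mouse 3) to 0.29 (mouse 5), Dnajc12 -0.079 (mouse 2) to 1.88 (mouse 6), Hspb8 -1.003 (mouse 4) to 0.68 (mouse 5), Hspa2 -0.18 (mouse 1) to 0.17 (mouse 2) and Hspe1 -1.66 (mouse 5) to 0.46 (mouse 4).

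Of 40 named members, 6 had a level per kilobase that moved by more than its SD with the median transcript length: Hsp90ab1 to 8813, Hsp90aa1 to 4688, Dnaja1 to 82.4, Dnajb6 to 74.6, Dnajc7 to 17.9 and Dnajc18 to 12.8. The ratio of stress-induced to constitutive sums without HSP90 moved by more than the SD of its group in 2 libraries without Hspb1. Depth limits members such as Hspa1a and Hspa1b, for which 0 counts allow up to 1.296 CPM.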
